A study of Mus musculus with 2 samples.

Results

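The 10 genes described here, *Irf8*, *Batf3*, *Id2*, *Nfil3*, *Irf4*, *Klf4*, *Zeb2*, *Zbtb46*, *Tcf4* and *Bcl6*, encode transcription factors and a partner protein of the dendritic cell (DC) lineages, and were chosen by name from the 27032 genes of the count tables. The data were single-cell transcriptomes of spleen cells of wild-type mice in 2 samples, called replicates 1 and 2, enriched for the integrin CD11c on magnetic beads. Cells carried sample tags and were captured in a single BD Rhapsody run, in which each captured transcript is counted once by a unique molecular identifier (UMI), and the run's other tags are not analysed here. The mice were on the C57BL/6J background and, by the methods, adult and of both sexes, and the number of animals behind either sample was not stated. Nothing states that the samples came from separate animals, so p-values measure only the spread between these 2 samples, which may be technical.

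Conventional DCs (cDCs) comprise cDC1s, which cross-present antigen to CD8+ T cells, and cDC2s, which favour CD4+ T cells, whereas plasmacytoid DCs (pDCs) are a main source of type I interferon. IRF8 and the AP-1 factor BATF3 are needed for cDC1s, IRF4 and KLF4 act in cDC2s, and the E protein TCF4 (E2-2) drives pDCs. ID2 lacks a DNA-binding domain and blocks E proteins, NFIL3 and ZEB2 act in progenitors on the choice between these fates, ZBTB46 marks cDCs against other myeloid cells, and BCL6 is a repressor best known from germinal centre B cells.

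Cells were placed in 9 groups by UMIs of 14 genes, none of them a member. The first match counted, in the order macrophages (*Vcam1* at least 20 and *C1qb* at least 5), mature DCs (*Ccr7* at least 2 and a *Fscn1* UMI) and cDC1s (*Clec9a* at least 2 and an *Xcr1* UMI). Then came cells with *Siglech* (at least 3) and a *Ccr9* UMI, B cells (*Cd79a* at least 3), T cells (*Cd3e* at least 2) and NK cells (an *Ncr1* UMI). Last came DCIR2 cDC2s (*Clec4a4* at least 2) and CLEC10A cDC2s (*Clec10a* and *Cd209a* together at least 2). Of 6393 cells, 5651 passed the quality filters, 4433 of these matched a group and 1218 (21.6%) matched none. The cDC1s were the largest group (684 and 568 cells in replicates 1 and 2) with the deepest cells (medians of 19521 and 20891 UMIs), and the *Siglech* *Ccr9* cells were the smallest (13 and 19 cells). Marker genes outside the rule were then compared. All 9 macrophage and all 9 mature DC markers, and all 7 markers each of B, T and NK cells, were higher in their own group than in every other type, as were 5 of 9 for cDC1s. Of 9 cDC2 markers, 1 (*Mgl2*) was highest in CLEC10A cDC2s and 0 in DCIR2 cDC2s. Their summed level was 1943 to 2737 CPM (UMIs per 1000000 UMIs of the group) in cDC2s and 520 to 579 CPM in cDC1s, but also 2444 to 2758 CPM in mature DCs and 2442 to 2605 CPM in NK cells. The rule with *Siglech* and *Ccr9* was meant for pDCs and had 4 of 9 pDC markers above every other type, but most of its cells went against that name, as shown with their values, so they are called *Siglech* *Ccr9* cells.

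Sequences before a RefSeq start site are shown for 4 members on which the results turn. The choice rests on levels over the 9 groups. There *Irf8* was by far highest in cDC1s and *Batf3* was raised in them. *Irf4* was lowest in cDC1s and macrophages, and *Zbtb46* was shared by all DC groups. A few *Siglech* *Ccr9* cells departed from this for *Irf8* and *Zbtb46*, as shown with their values. Each sequence is the 250 bases before a RefSeq start on GRCm38.p6, written 5′ to 3′ along the gene. Capitals mark CANNTG, the E-box that E proteins bind, and TGANTCA, the AP-1 motif, searched on both strands. CACCTG, a case of CANNTG, is the form that ZEB factors bind as well.
Irf8: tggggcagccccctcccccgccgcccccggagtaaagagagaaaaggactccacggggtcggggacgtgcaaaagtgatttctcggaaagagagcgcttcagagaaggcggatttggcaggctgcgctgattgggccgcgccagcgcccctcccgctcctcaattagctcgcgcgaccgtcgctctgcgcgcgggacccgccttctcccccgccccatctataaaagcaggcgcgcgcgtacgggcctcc
Irf4: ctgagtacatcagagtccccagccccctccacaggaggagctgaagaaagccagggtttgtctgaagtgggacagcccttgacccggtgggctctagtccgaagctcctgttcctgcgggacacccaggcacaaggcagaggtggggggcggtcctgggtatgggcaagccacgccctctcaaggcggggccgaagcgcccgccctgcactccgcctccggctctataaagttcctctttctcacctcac
Batf3: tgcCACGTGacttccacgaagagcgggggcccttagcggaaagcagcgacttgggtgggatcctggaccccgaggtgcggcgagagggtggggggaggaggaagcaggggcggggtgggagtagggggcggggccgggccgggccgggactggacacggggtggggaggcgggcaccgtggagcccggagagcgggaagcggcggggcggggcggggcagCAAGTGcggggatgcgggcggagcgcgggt
Zbtb46: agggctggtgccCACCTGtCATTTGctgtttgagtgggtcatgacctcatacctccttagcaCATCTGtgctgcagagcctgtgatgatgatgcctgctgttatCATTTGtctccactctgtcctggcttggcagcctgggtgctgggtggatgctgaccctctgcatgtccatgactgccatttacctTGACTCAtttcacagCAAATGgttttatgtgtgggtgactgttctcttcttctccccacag
The *Irf8* window is chr8:120736108-120736357 on the plus strand, the upstream of 2 RefSeq starts and directly before the GENCODE gene (chr8:120736358-120756694). The *Irf4* window is chr13:30748983-30749232 on the plus strand, at the start of the gene (chr13:30749226-30766976). The *Batf3* window (chr1:191098164-191098413, plus strand) and the *Zbtb46* window (chr2:181424389-181424638, minus strand) lie within the bodies of their GENCODE genes (chr1:191097847-191108945 and chr2:181387762-181459426). The 5′ end of the *Zbtb46* gene is at chr2:181459426, far from its window, so the motifs there do not describe the sequence before that end. The *Zbtb46* window held 5 E-boxes, 1 of them CACCTG, and 1 AP-1 motif, the *Batf3* window held 2 E-boxes, and neither motif occurred in the other windows shown. The window of the other *Irf8* start (chr8:120738389-120738638), not printed, held 2 E-boxes, 1 of them CACCTG. Over 32851 RefSeq windows of this length, 66.2% held CANNTG, 17.2% CACCTG and 6.75% TGANTCA, so the E-box is common, and a match of letters is a description and not a binding site.

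Each member had its own order of levels over the 9 groups, and the plot of levels by cell group shows both samples. *Irf8* was highest in cDC1s, *Batf3* in mature DCs, and *Id2* in mature DCs and macrophages, whose values overlapped. *Zeb2* was highest in macrophages, *Klf4* in CLEC10A cDC2s, and *Irf4*, *Tcf4* and *Bcl6* in *Siglech* *Ccr9* cells. *Zbtb46* had no single highest group, since DCIR2 cDC2s, cDC1s, mature DCs, *Siglech* *Ccr9* cells and CLEC10A cDC2s overlapped with their neighbours in the order, and the first step clear of the spread was that from CLEC10A cDC2s down to NK cells.

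**Figure D1:**
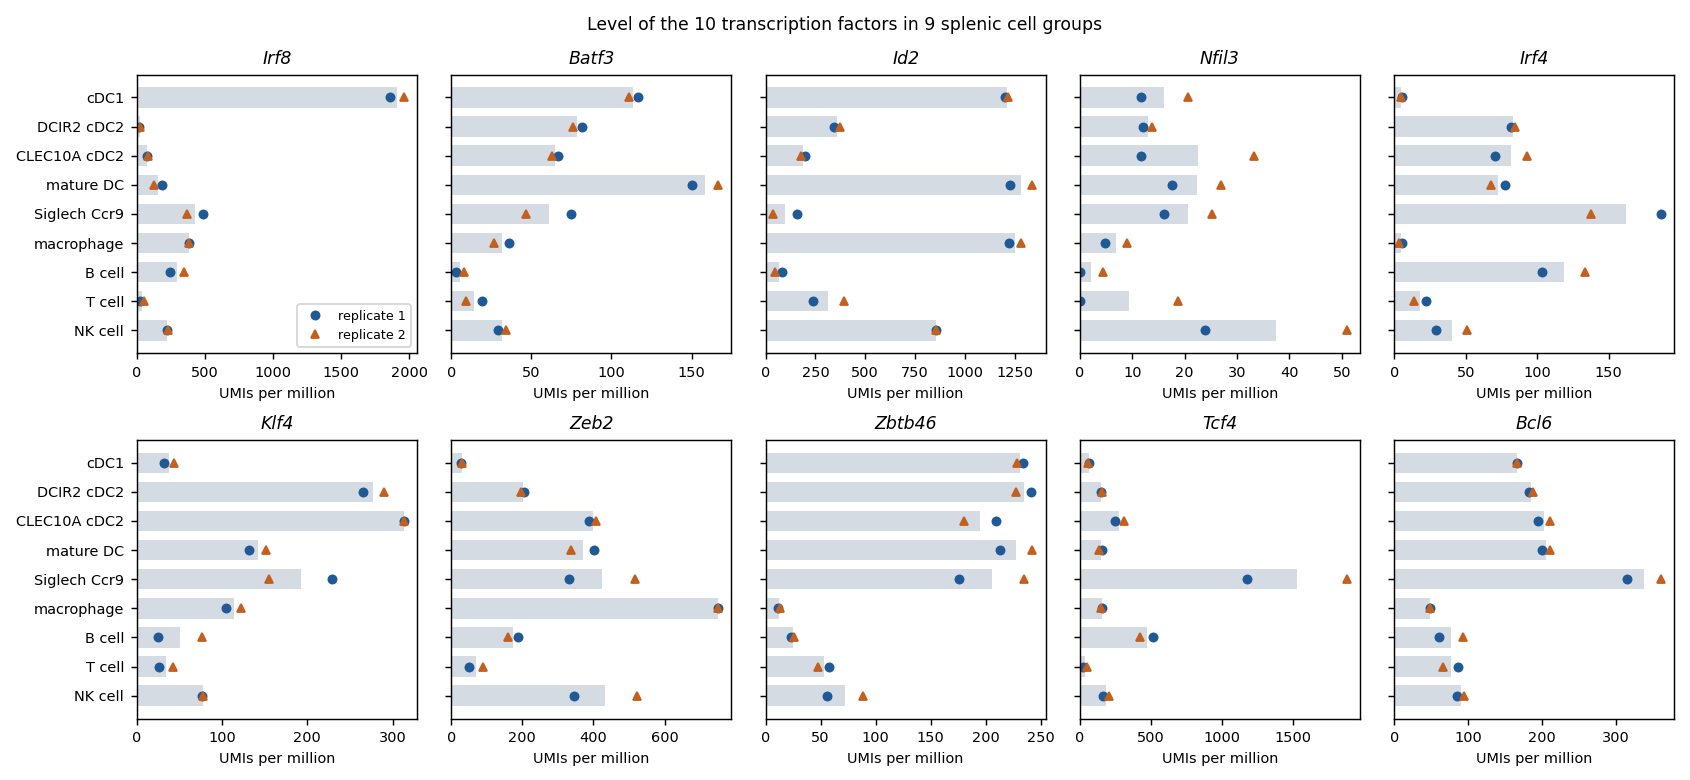
Level of each member (horizontal axes, UMIs per 1000000 UMIs of the group, linear from 0 and scaled for each gene) in the 9 cell groups (vertical axis), with circles for replicate 1, triangles for replicate 2 and bars for their mean. *Irf8* lies at 1857 and 1959 CPM in cDC1s and at 485 CPM or lower elsewhere, and *Zbtb46* at 176 to 242 CPM in every DC group and at 88.3 CPM or lower in the other groups.

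The first comparison asked how cDC1s differ from cDC2s. UMIs were summed over the cells of each group and sample and tested with edgeR's quasi-likelihood test with Benjamini-Hochberg adjustment over all genes, and cDC1s were set against the mean log2 level of the DCIR2 and CLEC10A groups. Of the 10 members, 3 were higher and 4 lower in cDC1s, against a background of 35.9% of 11903 genes called, 18.4% higher and 17.5% lower. *Irf8* was at 1857 and 1959 CPM in cDC1s, 71.6 and 84.4 CPM in CLEC10A cDC2s and 18.1 and 24.7 CPM in DCIR2 cDC2s. The groups lay far apart, and the log2 fold change of 5.71 ± 0.16 (SE, adjusted p = 2.08e-15) was the largest of any member in any comparison. *Irf8* UMIs could also come from *Gm20388*, annotated on the same strand over this gene. *Id2*, the E protein inhibitor, was at 1202 and 1216 CPM in cDC1s, 341 and 373 CPM in DCIR2 cDC2s and 197 and 179 CPM in CLEC10A cDC2s, again without overlap (log2 fold change 2.39 ± 0.18, adjusted p = 2.25e-09). *Batf3* was at 116 and 111 CPM in cDC1s, 81.4 and 75.8 CPM in DCIR2 cDC2s and 66.5 and 62.6 CPM in CLEC10A cDC2s. *Batf3* RNA was therefore measured in every cDC group, and cDC1s were higher by 0.84 ± 0.13 on the log2 scale (adjusted p = 3.94e-05).

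The 4 members lower in cDC1s were *Irf4*, *Zeb2*, *Klf4* and *Tcf4*. *Irf4* was at 5.12 and 4.68 CPM in cDC1s, 81.4 and 84.6 CPM in DCIR2 cDC2s and 70.7 and 92.7 CPM in CLEC10A cDC2s (log2 fold change -3.89 ± 0.20, adjusted p = 6.29e-12). *Zeb2* was at 27.8 and 30.5 CPM in cDC1s, 206 and 195 CPM in DCIR2 cDC2s and 387 and 408 CPM in CLEC10A cDC2s (log2 fold change -3.11 ± 0.18, adjusted p = 3.59e-11). The cDC1s had the lowest *Zeb2* level of the 9 groups. *Klf4* was at 31.3 and 43.4 CPM in cDC1s, 266 and 290 CPM in DCIR2 cDC2s and 313 CPM in both samples of CLEC10A cDC2s (log2 fold change -2.81 ± 0.20, adjusted p = 8.47e-10). *Tcf4* was at 62.6 and 59.8 CPM in cDC1s, 147 and 154 CPM in DCIR2 cDC2s and 245 and 310 CPM in CLEC10A cDC2s (log2 fold change -1.57 ± 0.18, adjusted p = 5.1e-07).

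The other 3 members did not pass the test. *Bcl6* was at 166 and 167 CPM in cDC1s and 182 to 211 CPM in cDC2s, *Nfil3* at 11.7 and 20.6 CPM in cDC1s and 11.7 to 33.3 CPM in cDC2s. *Zbtb46* was at 234 and 228 CPM in cDC1s and 180 to 241 CPM in cDC2s (log2 fold change 0.28 ± 0.11, adjusted p = 0.066), and in the fit with the sample as a block it passed (adjusted p = 0.019). Beyond the members, a list of 26 other DC regulators had 5 genes higher and 12 lower in cDC1s, with a median log2 fold change of -0.40 against 0.0032 over all genes. *Mycl*, which encodes the MYC relative L-MYC, rose from 42.2 and 45.4 CPM in cDC2s to 179 and 188 CPM in cDC1s (log2 fold change 2.23 ± 0.16, adjusted p = 1.2e-09). *Spib*, an ETS factor of B cells and pDCs, was at 3.62 and 3.92 CPM in cDC1s and 63.0 and 62.1 CPM in cDC2s (log2 fold change -3.88 ± 0.28, adjusted p = 9.12e-10). Of 21 tested relatives of the members (IRF, KLF, ZBTB, ID, E protein and AP-1 genes), 3 were higher and 3 lower. Among them were *Irf5* (log2 fold change 0.97 ± 0.17, adjusted p = 0.000108) and *Jun* (log2 fold change -1.26 ± 0.23, adjusted p = 0.000194).

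**Figure D2:**
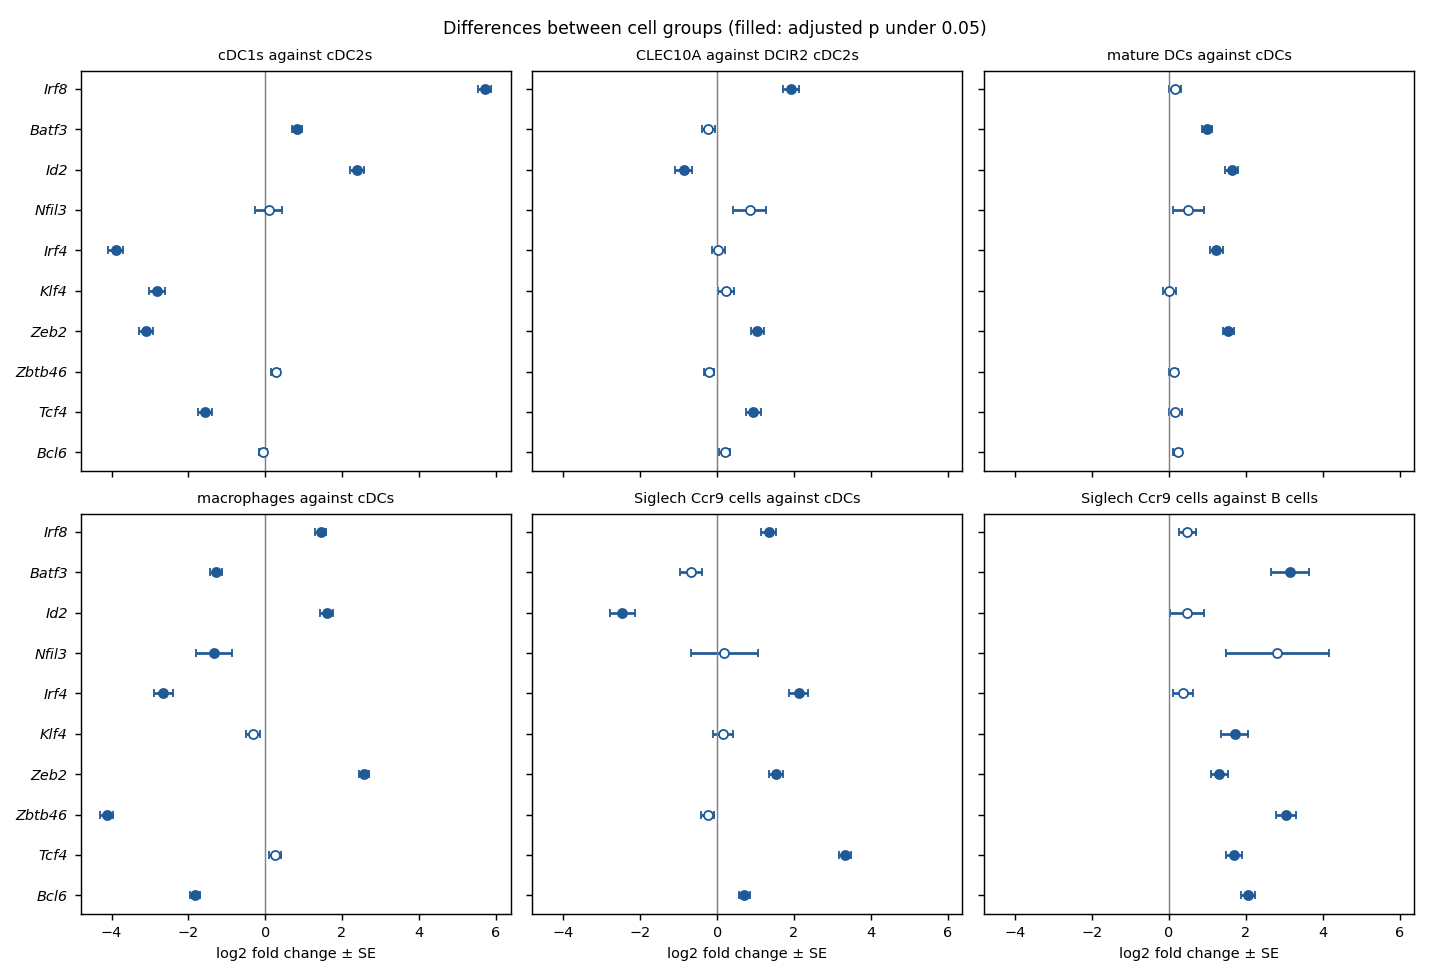
Log2 fold change (horizontal axis) of each member (vertical axis) in 6 comparisons of cell groups, with bars for ± 1 SE and filled circles for an adjusted p under 0.05. *Irf8* at 5.71 and *Irf4* at -3.89 lie at opposite ends between cDC1s and cDC2s, and *Zbtb46* at -4.13 is the lowest value of macrophages against cDCs.

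Within cDC2s, 3 members were higher and 1 lower in the CLEC10A than in the DCIR2 group, where 5.55% of 11903 genes were called, 3.55% higher and 2% lower. Only 347 of 556 and 300 of 456 DCIR2 cells matched no other rule. By the order of the rules, the rest also met the CLEC10A rule. With only the cells that match a single rule, 4 members were called as well. *Irf8* was at 71.6 and 84.4 CPM in CLEC10A and 18.1 and 24.7 CPM in DCIR2 cDC2s (log2 fold change 1.93 ± 0.21, adjusted p = 8.51e-06), both far below cDC1s. *Zeb2* was at 387 and 408 CPM against 206 and 195 CPM (log2 fold change 1.04 ± 0.17, adjusted p = 0.000906), although reads of its antisense gene *Zeb2os* cannot be told apart where the strand of counting is not given. *Tcf4* was at 245 and 310 CPM against 147 and 154 CPM (log2 fold change 0.94 ± 0.19, adjusted p = 0.00452). *Id2*, whose product blocks TCF4, went the other way, at 197 and 179 CPM against 341 and 373 CPM (log2 fold change -0.87 ± 0.23, adjusted p = 0.0256). The calls of *Irf8* and *Zeb2* remained without each of the 4 sums of cells in turn. That of *Id2* was lost without each of them (adjusted p from 0.101 to 0.278) and with DESeq2 (adjusted p = 0.0655). That of *Tcf4* was lost without CLEC10A replicate 2 (adjusted p = 0.144) or without DCIR2 replicate 1 or 2 (adjusted p = 0.0811 and 0.0623). The factors of cDC2s themselves did not pass, with *Irf4* at 70.7 and 92.7 CPM against 81.4 and 84.6 CPM and *Klf4* at 313 CPM in both samples against 266 and 290 CPM. Of the 26 other regulators, 1 was higher and 0 were lower, namely *Cebpa*, a factor of granulocyte and monocyte progenitors (63.0 and 69.7 CPM against 27.4 and 24.8 CPM, log2 fold change 1.40 ± 0.28, adjusted p = 0.00442). The summed level of 8 monocyte markers was 3164 and 3896 CPM in CLEC10A and 1284 and 1271 CPM in DCIR2 cDC2s, and its part in these differences was not tested.

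In single cells, *Irf8* was detected in most cDC1s and *Irf4* in few of them. To compare cells of unlike depth, each cell was thinned to 5000 UMIs, which kept 666 of 684 and 560 of 568 cDC1s, 554 of 556 and 453 of 456 DCIR2 cDC2s, and 473 of 484 and 401 of 408 CLEC10A cDC2s. After thinning, 95.3% and 96.8% of cDC1s in replicates 1 and 2 had an *Irf8* UMI (exact 95% binomial intervals 93.5 to 96.8% and 94.97 to 98.1%, for counting error only), and 96.6% and 98.8% did so before. An *Irf4* UMI was found in 2.25% and 2.14% of thinned cDC1s, close to 2.79% and 2.34% of macrophages, and in 29.6% and 30.9% of DCIR2 and 26.4% and 34.4% of CLEC10A cDC2s. *Irf8* was found in 7.04% and 9.49% of DCIR2 cDC2s, no higher than the 12.1% and 12.2% of T cells, which are not known for it, so this share is not read as a set of expressing cells. The part of free RNA in it, and so in the low *Irf8* level of DCIR2 cDC2s, was not tested. CLEC10A cDC2s had 22.8% and 21.7%. Both genes together were found in 4.23% and 6.98% of CLEC10A cDC2s, 1.08% and 2.65% of DCIR2 cDC2s and 1.20% and 1.07% of cDC1s. B cells were the group in which the 2 genes met most, with 15.4% of 52 and 28.5% of 130 thinned cells. A low share with both genes also follows where each alone is detected in few cells, so these shares do not show that the genes exclude each other.

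**Figure D3:**
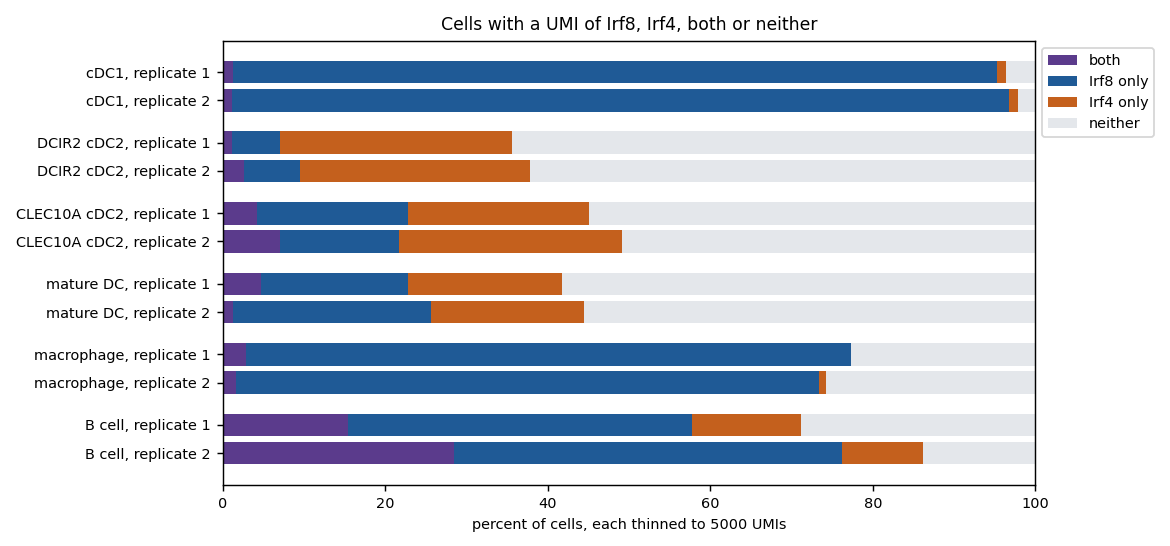
Share of cells (horizontal axis, percent of cells, each thinned to 5000 UMIs) with a UMI of both *Irf8* and *Irf4*, of either alone or of neither, in 6 cell groups and both replicates (vertical axis). *Irf8* alone fills 94.1% and 95.7% of cDC1s, *Irf4* alone 28.5% and 28.3% of DCIR2 cDC2s, and B cells have the widest segment for both genes.

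Mature DCs, which carry the lymph node homing receptor *Ccr7*, were set against the mean log2 level of cDC1s and both cDC2 groups. The comparisons of mature DCs, macrophages and *Siglech* *Ccr9* cells with cDCs share these 6 sums of cDCs. In mature DCs, 4 members were higher and 0 lower, with 33.1% of 11903 genes called, 18.2% higher and 14.9% lower. *Id2* was at 1228 and 1338 CPM in mature DCs (log2 fold change 1.63 ± 0.17, adjusted p = 2.3e-07), above cDC1s at 1202 and 1216 CPM and well above cDC2s. *Batf3* reached 150 and 166 CPM, its highest level of any group and clear of the 116 and 111 CPM of cDC1s (log2 fold change 0.99 ± 0.13, adjusted p = 7.26e-06). *Zeb2* was at 402 and 338 CPM (log2 fold change 1.54 ± 0.14, adjusted p = 3.13e-08) and *Irf4* at 77.6 and 68.0 CPM (log2 fold change 1.23 ± 0.16, adjusted p = 6.67e-06). Both were higher against the mean of the cDC groups and lay within the range of cDC2s or just below it. These levels are averages over cells that differed, since *Id2* was at 2200 and 2311 CPM in mature DCs with a UMI of *Il12b* or *Ccl22* and at 897 and 828 CPM in the others, below cDC1s.

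The other 6 members did not pass in mature DCs. *Irf8* was at 188 and 127 CPM, between cDC1s and cDC2s, and *Klf4* at 131 and 152 CPM, likewise between them, and their adjusted p-values were 0.508 and 0.998. *Zbtb46*, *Tcf4*, *Bcl6* and *Nfil3* had log2 fold changes of 0.12 to 0.51. *Bcl6* (0.22 ± 0.11, adjusted p = 0.138) passed under 4 other settings, namely doubled UMI thresholds (0.0487), thinning (0.0491), DESeq2 (0.0166) and only the groups compared (0.0276). Of the 26 other regulators, 10 were higher and 6 lower. *Relb*, an NF-kB subunit and itself among the markers of these cells, was at 1167 and 1049 CPM in mature DCs and 211 and 198 CPM in all cDCs (log2 fold change 2.78 ± 0.16, adjusted p = 5.63e-11). *Spib* was at 170 and 164 CPM against 43.2 and 42.7 CPM (log2 fold change 2.83 ± 0.20, adjusted p = 8.68e-10). It was at 3.62 and 3.92 CPM in cDC1s and 63.0 and 62.1 CPM in cDC2s, so the size of this change depends on how the cDC groups are weighted. *Mycl* was lower, at 17.7 and 21.5 CPM against 87.7 and 93.0 CPM (log2 fold change -1.77 ± 0.25, adjusted p = 1.08e-05). The relatives divided evenly, with 4 higher and 4 lower of 21, led by *Irf1* (1.30 ± 0.18, adjusted p = 7.75e-06) and *Irf7* (-1.84 ± 0.23, adjusted p = 2.69e-06) on the log2 scale.

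Macrophages differed from cDCs in 8 members, 3 higher and 5 lower, where 54% of 11903 genes were called, 27.5% higher and 26.6% lower. *Zbtb46* was at 11.2 and 13.1 CPM in macrophages and 180 to 241 CPM over the 3 cDC groups (log2 fold change -4.13 ± 0.17, adjusted p = 3.43e-14). *Bcl6* was at 48.8 and 48.9 CPM against 166 to 211 CPM (log2 fold change -1.84 ± 0.13, adjusted p = 2e-10). These were the lowest levels of both genes in any group. *Irf4* was at 5.61 and 3.26 CPM, overlapping with cDC1s (log2 fold change -2.66 ± 0.25 against the mean of cDCs, adjusted p = 1.34e-08). *Batf3* was at 36.3 and 26.5 CPM, below every cDC group (log2 fold change -1.29 ± 0.16, adjusted p = 6.61e-07). *Zeb2* was at 749 and 750 CPM, the highest level of any group (log2 fold change 2.57 ± 0.13, adjusted p = 1e-12). *Id2* was at 1220 and 1281 CPM, just above cDC1s and far above cDC2s (log2 fold change 1.60 ± 0.17, adjusted p = 8.41e-08). *Irf8* was at 383 and 380 CPM, above both cDC2 groups and far below cDC1s, so its log2 fold change of 1.45 ± 0.14 (adjusted p = 3.15e-08) against the mean of log2 levels depends on how the cDC groups are weighted.

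*Nfil3* was at 4.70 and 8.97 CPM in macrophages and 11.7 to 33.3 CPM in cDCs (log2 fold change -1.34 ± 0.46, adjusted p = 0.0203). This call was lost without macrophage replicate 1 (adjusted p = 0.379), after thinning (0.0813) and with DESeq2 (0.0751). *Klf4* was at 105 and 122 CPM (log2 fold change -0.32 ± 0.18, adjusted p = 0.135) and *Tcf4* at 156 and 152 CPM (adjusted p = 0.2). *Klf4* passed with the sample as a block (0.0447), after thinning (0.00903), without a filter on low counts (0.0105) and with only the groups compared (0.0249). *Tcf4* passed with all cells (0.0232) and with only the groups compared (0.0345). *Klf4* lay above cDC1s (31.3 and 43.4 CPM) and below both cDC2 groups (266 to 313 CPM). *Tcf4* lay above cDC1s (62.6 and 59.8 CPM), near DCIR2 cDC2s (147 and 154 CPM) and below CLEC10A cDC2s (245 and 310 CPM). Both results therefore depend on how the cDC groups are weighted. Of the 26 other regulators, 22 were lower and 2 higher, with a median log2 fold change of -1.39 against -0.031 over all genes. The cytokine receptor *Flt3*, on which cDCs depend, was at 19.5 and 11.8 CPM against 494 and 508 CPM (log2 fold change -4.83 ± 0.27, adjusted p = 4.43e-12). *Cebpb*, a factor of monocytes and macrophages, was at 164 and 193 CPM against 10.6 and 15.1 CPM (log2 fold change 4.06 ± 0.17, adjusted p = 6.02e-14). Of 21 relatives, 7 were higher and 6 lower, and *Zeb1*, the nearest relative of *Zeb2*, was lower (21.2 and 14.7 CPM against 117 and 116 CPM, log2 fold change -2.54 ± 0.22, adjusted p = 4.15e-09). The 4 erythroid markers summed to 2375 and 637 CPM in macrophages and to 47.3 CPM or less in cDCs, and their part in these results was not tested.

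The *Siglech* *Ccr9* cells numbered 13 in replicate 1 and 19 in replicate 2, and only 4 and 7 of them matched no other rule of the 9. Against cDCs, 5 members were higher and 1 lower, where 9.66% of 11903 genes were called (4.91% higher, 4.76% lower). The median of all genes was -0.16 on the log2 scale. *Tcf4* was at 1178 and 1882 CPM, above every other group (log2 fold change 3.32 ± 0.16, adjusted p = 6.36e-11). *Irf4* was at 187 and 137 CPM, also above every other group (log2 fold change 2.12 ± 0.25, adjusted p = 8.16e-06). *Zeb2* was at 330 and 516 CPM (log2 fold change 1.53 ± 0.18, adjusted p = 1.13e-05), a range that holds that of CLEC10A cDC2s. *Bcl6* was at 314 and 361 CPM (log2 fold change 0.71 ± 0.14, adjusted p = 0.00288), although reads of *Gm37419*, annotated over it on the other strand, cannot be told apart. This call was lost without replicate 2 of these cells (0.47, adjusted p = 0.264), with doubled UMI thresholds (0.45, adjusted p = 0.293) and without a filter on low counts (0.50, adjusted p = 0.062). *Id2* was at 160 and 36.1 CPM (log2 fold change -2.47 ± 0.33, adjusted p = 3.38e-05). A single cell held 23 of its 30 UMIs in replicate 1, where replicate 2 had 10 in all, and the log2 fold change ranged from -3.97 to -1.67 over the settings, -3.86 without replicate 1 of these cells and -1.74 without replicate 2. *Irf8* was at 485 and 368 CPM (log2 fold change 1.34 ± 0.19, adjusted p = 7.88e-05), and this value rested on few cells.

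In replicate 1, 2 of 13 cells and in replicate 2, 1 of 19 cells had 10 or more UMIs of *Ly6d*, a pDC marker of the list, a division chosen after the cells were seen. These cells had 45 to 75 *Siglech* UMIs, where the others had 14 or fewer, and they held 82 of 91 *Irf8* UMIs (90.1%) in replicate 1 and 81 of 102 (79.4%) in replicate 2. *Irf8* was at 2986 and 4310 CPM in them, above the 1857 and 1959 CPM of cDC1s. In the other cells it was at 56.2 and 81.4 CPM, and 8 of 11 and 10 of 18 of them had no *Irf8* UMI. *Zbtb46* was the reverse, with 0 UMIs in the *Ly6d* cells (of 27461 and 18792 UMIs in all, which allows up to 109 and 160 CPM for counting error) and 206 and 252 CPM in the others, as high as in cDCs. *Tcf4* was present on both sides, at 3132 and 2767 CPM in the *Ly6d* cells and 843 and 1817 CPM in the others, every one of which had a *Tcf4* UMI. *Irf4*, *Klf4*, *Zeb2* and *Bcl6* were lower in the *Ly6d* cells of both samples, with *Bcl6* at 0 and 106 CPM against 368 and 380 CPM. With so few cells these values carry no test. The summed level of the 9 cDC2 markers was 1983 and 2644 CPM over all *Siglech* *Ccr9* cells, in the range of cDC2s, and that of the 9 pDC markers 1684 and 1842 CPM, against 274 to 341 CPM in cDC2s.

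Without the *Ly6d* cells, an alternative added after the data were seen, *Irf8* was lower than the mean log2 level of cDCs (log2 fold change -1.26, adjusted p = 0.0124). At 56.2 and 81.4 CPM it lay far below cDC1s, near CLEC10A cDC2s and above DCIR2 cDC2s, so this direction too depends on how the cDC groups are weighted. With only the cells that match a single rule (4 and 7 cells) *Irf8* was lower still (-2.30, adjusted p = 0.0061). Every *Ly6d* cell also matched another rule, so this setting leaves out the same cells and is no separate evidence. The same 6 members were called without the *Ly6d* cells, and the 5 other than *Irf8* kept their direction, with log2 fold changes of 3.10 for *Tcf4*, 2.18 for *Irf4*, 1.54 for *Zeb2*, 0.81 for *Bcl6* and -2.46 for *Id2*. Of the 26 other regulators, 6 were higher and 3 lower in all *Siglech* *Ccr9* cells. *Runx2*, a factor with a role in pDCs and on the list of pDC markers, was at 677 and 751 CPM against 88.9 and 84.0 CPM (log2 fold change 3.09 ± 0.15, adjusted p = 6.36e-11). *Spib* was at 155 and 339 CPM against 43.2 and 42.7 CPM (log2 fold change 3.21 ± 0.30, adjusted p = 6.21e-07). The size of this change also depends on the weighting, with *Spib* at 3.62 and 3.92 CPM in cDC1s and 63.0 and 62.1 CPM in cDC2s. The E protein relative *Tcf12* was higher too (208 and 235 CPM against 87.4 and 75.3 CPM, log2 fold change 1.29 ± 0.21, adjusted p = 0.000366). Of the 21 relatives, 2 were higher and 6 lower, with a median log2 fold change of -0.51 against -0.16 over all genes. *Zbtb7b* (-2.48 ± 0.51, adjusted p = 0.00291) and *Irf5* (-1.47 ± 0.38, adjusted p = 0.0172) were lower by more than *Tcf12* was higher.

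**Figure D4:**
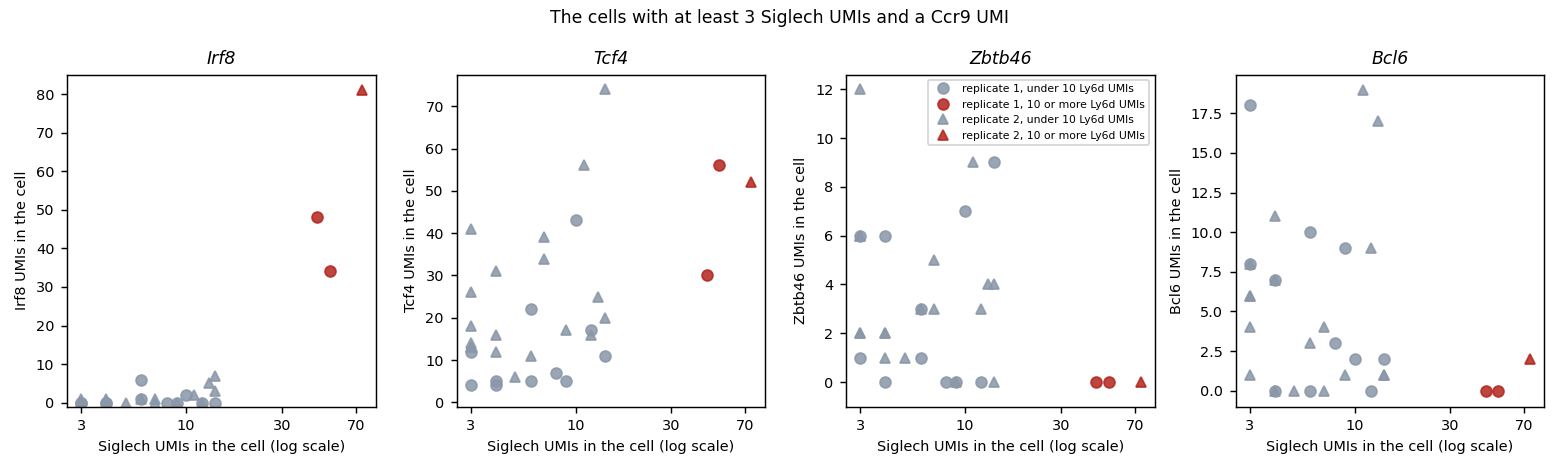
UMIs of *Irf8*, *Tcf4*, *Zbtb46* and *Bcl6* (vertical axes, linear) against *Siglech* UMIs (horizontal axes, log scale) in each of the 13 and 19 *Siglech* *Ccr9* cells, with circles for replicate 1, triangles for replicate 2 and red for the cells of 10 or more *Ly6d* UMIs. The red cells hold 34, 48 and 81 *Irf8* UMIs and 0 *Zbtb46* UMIs, and no other cell has more than 7 *Irf8* UMIs.

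B cells express several of the same factors, and against them 6 members were higher in *Siglech* *Ccr9* cells and 0 lower, where 18% of 11903 genes were called, 10.2% higher and 7.77% lower. *Tcf4* was at 518 and 422 CPM in B cells, the second highest group (log2 fold change of *Siglech* *Ccr9* cells 1.69 ± 0.21, adjusted p = 5.53e-06). *Zbtb46* was at 23.5 and 25.8 CPM in B cells (log2 fold change 3.04 ± 0.25, adjusted p = 3.9e-08) and *Batf3* at 3.14 and 8.11 CPM (log2 fold change 3.15 ± 0.49, adjusted p = 8.15e-05). *Bcl6* was at 61.2 and 92.9 CPM (log2 fold change 2.06 ± 0.19, adjusted p = 1.62e-07), and *Klf4* (1.71 ± 0.34, adjusted p = 0.0012) and *Zeb2* (1.31 ± 0.23, adjusted p = 0.000261) were higher as well. The call of *Zeb2* was lost without replicate 2 of the *Siglech* *Ccr9* cells (adjusted p = 0.0561) and that of *Klf4* with only the cells that match a single rule (adjusted p = 0.0778). *Irf4* at 104 and 133 CPM and *Irf8* at 240 and 346 CPM in B cells did not pass, and without the *Ly6d* cells *Irf8* was lower in the *Siglech* *Ccr9* cells (log2 fold change -2.07, adjusted p = 7.02e-05). With doubled UMI thresholds it was higher (1.31, adjusted p = 0.000703), as it was with all cells kept (0.69, adjusted p = 0.0147). *Nfil3*, with at most 7 UMIs in any of these sums, passed only with the sample as a block, without a filter on low counts and with DESeq2 (adjusted p = 0.0352, 0.0161 and 0.0237, against 0.164). Of the 26 other regulators, 16 were higher and 0 lower, led by *Runx2* (5.61 ± 0.26, adjusted p = 4.47e-11) and *Flt3* (4.76 ± 0.31, adjusted p = 2.15e-09) on the log2 scale. Of the 21 relatives, 1 was higher and 6 were lower, with a median log2 fold change of -0.38 against -0.071 over all genes.

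Another set was drawn from both cDC2 groups and the cells that matched no rule. These 28 and 17 cells had at least 3 *Siglech* UMIs and a *Cx3cr1* UMI but no *Ccr9* UMI. Their *Tcf4* level was 1064 and 1106 CPM, *Zbtb46* 206 and 242 CPM, *Zeb2* 423 and 442 CPM and *Klf4* 204 and 359 CPM. Against the *Siglech* *Ccr9* cells, 8 members could be tested and 1 was called, where 0.061% of 4918 genes were, all lower. This was *Irf8*, at 72.3 and 33.4 CPM against 485 and 368 CPM (log2 fold change -2.92 ± 0.36, adjusted p = 0.00617), and without the *Ly6d* cells it was not called (-0.37, adjusted p = 0.999), nor after thinning (-2.31, adjusted p = 0.111). *Tcf4*, with a log2 fold change of -0.50 ± 0.19 (adjusted p = 0.871), passed without replicate 1 of the *Siglech* *Ccr9* cells (-0.79, adjusted p = 0.000866). *Id2*, too low to be tested here, had 10 and 6 UMIs.

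Among cDC1s, 149 and 141 cells had a *Ccr2* UMI, the receptor of monocytes and of DCs newly arrived from the bone marrow, and 535 and 427 cells had none. In the former, 3 members were higher and 0 lower, where 11.4% of 11188 genes were called, 5.52% higher and 5.88% lower. *Zeb2* was at 63.2 and 48.8 CPM against 18.4 and 24.6 CPM (log2 fold change 1.27 ± 0.19, adjusted p = 0.00355). *Tcf4* was at 98.7 and 82.1 CPM against 53.0 and 52.6 CPM (log2 fold change 0.66 ± 0.12, adjusted p = 0.00667), and *Klf4* was at 52.8 and 60.3 CPM against 25.7 and 38.0 CPM (log2 fold change 0.72 ± 0.20, adjusted p = 0.0468). These are 3 of the 4 members that were lower in cDC1s than in cDC2s, and all stayed below both cDC2 groups. With only the cells that match a single rule, *Zeb2* fell short (0.58, adjusted p = 0.0701). *Klf4* lost its call in that and 4 other settings (adjusted p from 0.0678 to 0.214), among them leaving out either sum of *Ccr2* cells or replicate 1 of the other cDC1s. *Irf8*, *Id2* and *Batf3* did not pass, with *Irf8* at 1882 and 2056 CPM against 1850 and 1928 CPM. *Bcl6* was at 150 and 155 CPM against 170 CPM in both samples (log2 fold change -0.27 ± 0.08, adjusted p = 0.0503). It passed with the sample as a block (adjusted p = 0.00608), with all cells (0.0115) and without a filter on low counts (0.0128). Passing more narrowly were the fits with only the cells that match a single rule (0.0445), other size factors (0.0488) and no Scrublet cells (0.0495). *Nfil3* passed only without replicate 1 of the cDC1s without *Ccr2* (-0.92, adjusted p = 0.0149). In the same cells the monocyte markers, which include *Ccr2*, summed to 1924 and 1842 CPM against 1215 and 957 CPM. The cells were divided by *Ccr2* itself, so part of this difference was fixed by the division. The cDC1 markers summed to 4700 and 4780 CPM against 5549 and 5599 CPM, and the part of either list in the differences of members was not tested.

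Cycling cDC1s, with 2 or more UMIs of *Mki67* and *Top2a* together (163 and 149 cells), differed from those with none (454 and 360 cells) in 1 member, where 14.1% of 10999 genes were called, 8.81% higher and 5.27% lower. *Zbtb46* was at 213 and 204 CPM against 242 CPM in both samples (log2 fold change -0.28 ± 0.07, adjusted p = 0.0277). The call was lost without each of the 4 sums (adjusted p from 0.0613 to 0.162), after thinning (0.0678), with DESeq2 (0.0868) and with only the cells that match a single rule (0.0601). The cycling cells were deeper, with medians of 22505 and 23833 UMIs against 18166 and 20032 UMIs. With the sample as a block 4 members were called, all lower in cycling cells, with log2 fold changes of -0.12 for *Irf8* (adjusted p = 0.022), -0.50 for *Zeb2* (0.0471), -0.22 for *Bcl6* (0.0386) and -0.28 for *Zbtb46* (0.00457). The share of 14.1% of genes is that of the fit without the block, so it is no background for this count. *Irf8* also passed without replicate 1 of the other cDC1s (adjusted p = 0.0332) and *Zeb2* without replicate 2 of the cycling ones (adjusted p = 0.0209). The differences were small, and *Irf8* remained at 1842 and 1855 CPM in cycling cDC1s against 1853 and 1993 CPM.

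**Figure D5:**
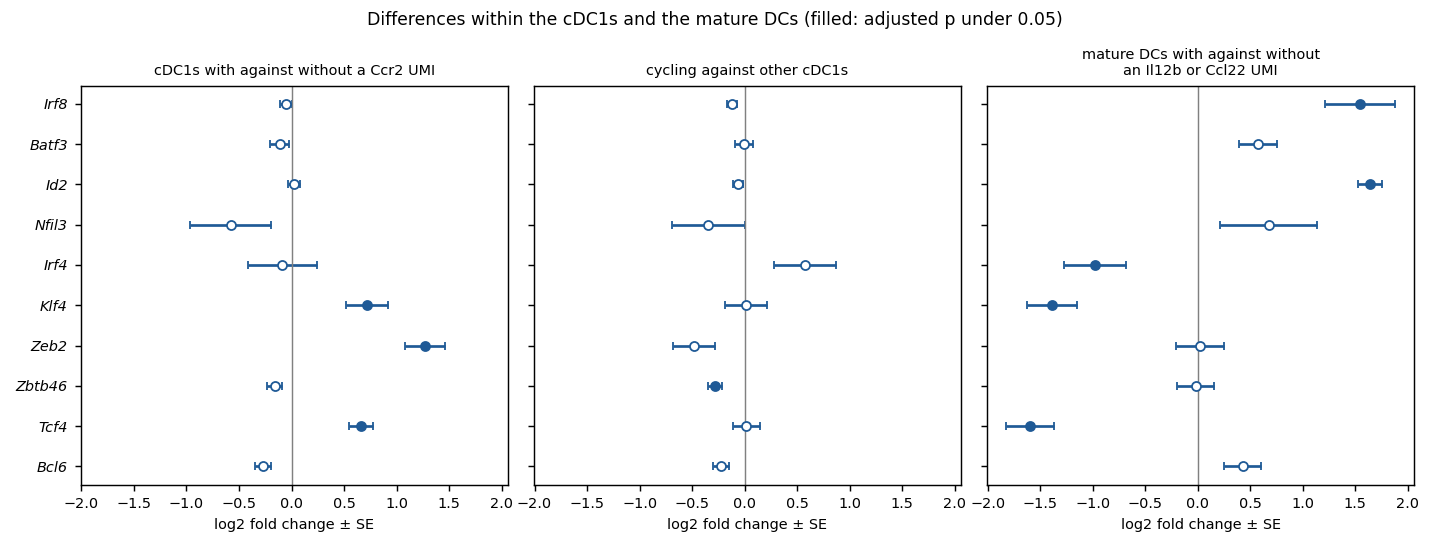
Log2 fold change (horizontal axis) of each member (vertical axis) between cDC1s with and without a *Ccr2* UMI, cycling and other cDC1s, and mature DCs with and without an *Il12b* or *Ccl22* UMI, with bars for ± 1 SE and filled circles for an adjusted p under 0.05. *Zeb2* at 1.27 leads the first panel, *Zbtb46* at -0.28 is the only filled point of the second, and *Id2* at 1.64 and *Tcf4* at -1.60 lie at the ends of the third.

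Mature DCs were divided by cytokine genes. Those with a UMI of the cytokine genes *Il12b* or *Ccl22* (33 and 56 cells) differed from those without (105 and 117 cells) in 5 members, 2 higher and 3 lower, where 17.6% of 8155 genes were called, 10.3% higher and 7.32% lower. *Id2* was at 2200 and 2311 CPM against 897 and 828 CPM (log2 fold change 1.64 ± 0.12, adjusted p = 1.62e-05), above the level of any of the 9 groups. *Irf8* was at 286 and 248.7 CPM against 155 and 63.2 CPM (log2 fold change 1.54 ± 0.33, adjusted p = 0.00963). *Tcf4* was at 47.2 and 55.3 CPM against 197 and 177 CPM (log2 fold change -1.60 ± 0.23, adjusted p = 0.000845). *Klf4* was at 52.2 and 61.1 CPM against 158 and 200 CPM (log2 fold change -1.39 ± 0.24, adjusted p = 0.0027). The signs of these 4 were those of cDC1s against cDC2s. *Irf4* was lower too (47.2 and 30.5 CPM against 87.9 and 87.6 CPM, log2 fold change -0.98 ± 0.30, adjusted p = 0.0466). Its call was lost in 9 settings (adjusted p from 0.0603 with the sample as a block to 0.596 after thinning). Among them were leaving out either sum of cells without these cytokines or replicate 2 of those with them. *Tcf4* was lost after thinning (-0.94, adjusted p = 0.0542).

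*Zeb2*, *Zbtb46*, *Bcl6* and *Nfil3* did not pass within mature DCs, and neither did *Batf3* (174 and 193 CPM against 142 and 152 CPM, adjusted p = 0.054, and 0.0162 without replicate 1 of the cells with these cytokines). Of 24 other regulators tested, 7 were higher and 5 lower, and of 18 relatives 4 were higher and 0 lower. *Irf1*, an interferon-induced relative of *Irf8*, was at 706 and 893 CPM against 162 and 150 CPM (log2 fold change 2.61 ± 0.17, adjusted p = 9.3e-06). *Batf*, the relative of *Batf3*, was at 24.9 and 18.9 CPM against 6.76 and 7.61 CPM (log2 fold change 1.80 ± 0.55, adjusted p = 0.0456). *Rbpj*, the nuclear partner of Notch, was higher (1.65 ± 0.16, adjusted p = 0.000106), and *Bcl11a* (-2.04 ± 0.23, adjusted p = 0.000213) and *Runx3* (-1.79 ± 0.21, adjusted p = 0.000266) were lower on the log2 scale. The cDC2 markers summed to 1939 and 1271 CPM in cells with these cytokines and 3036 and 3058 CPM in those without. The cDC1 markers summed to 955 and 906 CPM against 774 and 819 CPM, and the part of either list in the differences was not tested.

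*Nfil3* was the lowest-sampled member, with 0 to 242 UMIs in any sum of the 9 groups. It was higher in replicate 2 than in replicate 1 in 9 of 9 groups, which held for 54 of 9296 genes compared (0.581%), and the difference between samples had a median of 0.81 on the log2 scale. With that shift between samples, neighbours in its order overlapped from NK cells down to macrophages. Within each sample NK cells were highest (23.9 and 50.9 CPM) and macrophages lay below all 3 cDC groups. *Klf4* and *Bcl6* were higher in replicate 2 in 8 of 9 groups, with medians of 0.21 and 0.077.

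The likeness of patterns was measured by Pearson's r of log2 CPM over the 18 sums, which share libraries and depth, so it is a description without a test. *Zbtb46* and *Bcl6* were the most alike pair of members (r = 0.91). *Flt3* was among the 3 genes closest to each (r = 0.97 with *Zbtb46* and 0.95 with *Bcl6*), next to *Kit* for *Zbtb46* (0.95) and *Fgfr1* for *Bcl6* (0.96). *Batf3* was closest to *Synj1* (0.96), *Irf4* to *Rest* (0.92), *Tcf4* to *Lifr* (0.92), *Klf4* to *Gm5431* (0.91), *Id2* to *Dynll2* (0.89), *Nfil3* to *Tbcb* (0.87) and *Irf8* to *P2ry14* (0.81). *Zeb2* was closest to *Zeb2os* (0.89), annotated on its opposite strand, and then to *Casp1* (0.89). The pairs of members that ran most against each other were *Id2* with *Irf4* (-0.68), *Id2* with *Tcf4* (-0.61) and *Irf8* with *Irf4* (-0.39).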

How the data were processed

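The authors made the deposited tables with the BD Rhapsody whole-transcriptome pipeline on GRCm38, with intronic reads counted and UMIs corrected for substitution errors; the tables hold UMI counts per cell and gene, without normalization, and 0 further columns of values were left unused. The submitters' processing notes name R 4.2.3 and Seurat 4.3.0.1. The sources used here do not give the strand of counting. The tables held 3308 and 3085 cells with 46953398 and 43137746 UMIs (medians of 11870 and 11241 UMIs per cell), with 0 barcodes in common.

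As in the methods, cells with at least 200 genes and within the mean ± 3 median absolute deviations of mitochondrial share, genes and UMIs were kept (2928 and 2723), with genes in at least 3 cells. No doublets were removed, and Scrublet (scanpy 1.11.5) called 36 cells (0.637%). Of the kept cells, 610 matched more than 1 rule and took the first. UMIs were summed per sample and group, and tested in edgeR 4.0.16 (R 4.3.3; TMM, filterByExpr, glmQLFit, glmQLFTest, threshold 0.05), with the 14 genes of the rule, and the genes of each further split, left out. The 6 main comparisons used all 18 sums in a single fit and the 4 splits their own sums. The SE is the log2 fold change over the square root of F. Fold changes follow TMM and so differ from ratios of CPM. Where several cDC groups are pooled, the fold change uses the mean of their log2 levels. The pooled CPM printed beside it are plain means over the groups, so the fold change can lie far from their ratio. Replicates differed beyond sampling noise (chi-square per degree of freedom 2.49 to 6.68). Same-numbered sums come from the same sample, and the deviations of the samples correlated by -0.040 to 0.21 over 36 pairs of groups and 7115 genes (median 0.026, 9 pairs over 0.1).

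The members, gene lists and tests were chosen with earlier results of these data known. All 10 members are named, and from the lists only some of the genes past the threshold, not always those with the largest changes. In macrophages, *Mycl* (log2 fold change -5.33) and *Cbfa2t3* (-5.15) changed more than *Flt3*. Within cDC1s no gene of the lists is named. Alternatives were DESeq2 1.42.0, other size factors, no filter on low counts, all cells, cells that match 1 rule, doubled UMI thresholds, thinning to 5000 UMIs, no Scrublet cells, the sample as a block, only the groups compared, and each sum left out. The fits were tested on simulated data. Tables and figures used Python 3.11.15, pandas 2.3.3 and matplotlib 3.10.9.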

Additional observations from a re-analysis of the deposited data

How the results depend on the processing

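The number of members called kept its level (within a factor of 1.5) in 136 of 153 alternative settings, and the 45 of 98 fold changes past the threshold kept their direction in 716 of 718 refits and passed again in 677. Another 13 passed under another setting only, and 40 under none. The 2 reversals were those of *Irf8* in *Siglech* *Ccr9* cells against cDCs, from 1.34 to -2.30 with only the cells that match 1 rule and to -1.26 without the cells of 10 or more *Ly6d* UMIs, an alternative chosen after seeing the data. Both settings leave out these cells, which held most *Irf8* UMIs of that group.

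Between CLEC10A and DCIR2 cDC2s, 2 to 3 members were called with a sum left out, against 4. For cycling cDC1s (1 called), the count was 0 with DESeq2, 0 after thinning, 0 with cells that match 1 rule, 2 with all cells, 3 without a filter on low counts, and 0 to 1 with a sum left out. For *Siglech* *Cx3cr1* cells (1 called) it was 0 after thinning, 0 with cells that match 1 rule, 0 without the *Ly6d* cells and 1 to 2 with a sum left out, and for mature DCs with *Il12b* or *Ccl22* (5 called) it was 3 after thinning. The setting with cells that match 1 rule also leaves out the *Ly6d* cells, and the cause of these changes was not tested. With a sum left out, the counts were 7 for cDC1s against cDC2s, 4 for mature DCs, 7 to 8 for macrophages, 5 to 6 for *Siglech* *Ccr9* cells against cDCs and against B cells, 2 to 3 for *Ccr2* cDC1s and 4 to 6 for the mature DC split, and a lone sum was assumed to vary like the others. Without replicate 1 or 2 altogether, fold changes are values without a test, as no degrees of freedom are left.

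With the sample as a block, 4 members were called in cycling cDC1s against 1, and *Zbtb46* (cDC1s against cDC2s), *Klf4* (macrophages), *Nfil3* (against B cells) and *Bcl6* (*Ccr2* cDC1s) were added and *Irf4* (mature DC split) lost; no other call of a member changed with the block.

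Counts over all genes moved more. They fell from 4270 to 2749 for cDC1s against cDC2s, from 661 to 210 for CLEC10A cDC2s, from 1150 to 456 for *Siglech* *Ccr9* cells, from 3942 to 2452 for mature DCs and from 2144 to 1328 against B cells at the lowest with a sum left out, and to 684 of 1276 for *Ccr2* cDC1s, 1025 of 1549 for cycling cDC1s and 941 of 1437 for the mature DC split. Thinning gave 525, 1193, 576, 849 and 919 genes for *Siglech* *Ccr9* cells against cDCs and B cells, *Ccr2* cDC1s, cycling cDC1s and the mature DC split, and DESeq2 gave 829, 981 and 857 for the last 3. Only the groups compared gave 1773 for CLEC10A cDC2s, cells that match 1 rule 1398 against B cells, the block 2272 and no filter on low counts 1941 for *Ccr2* cDC1s, and all cells 2819 for cycling cDC1s. For *Siglech* *Cx3cr1* cells the count of 3 ranged from 0 to 39.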

Other observations

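The 616 and 602 cells that matched no rule were left out of the comparisons, save that of the *Siglech* *Cx3cr1* cells. Those were drawn from both cDC2 groups and these unmatched cells. Most of their member levels lay near those of cDC2s. *Zbtb46* was at 218 and 188 CPM, *Klf4* at 232 and 267 CPM, *Irf4* at 65.2 and 83.5 CPM, *Zeb2* at 328 and 335 CPM and *Bcl6* at 166 and 185 CPM. *Irf8* was at 103 and 90.0 CPM, slightly above CLEC10A cDC2s, and *Id2* at 386 and 348 CPM, near DCIR2 cDC2s. Their median depth was 8909 and 9544 UMIs per cell, and their cDC2 markers summed to 2537 and 2378 CPM.

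NK cells and T cells entered no comparison of their own. NK cells (38 and 36 cells) had *Id2* at 854 and 852 CPM, *Zeb2* at 345 and 523 CPM and *Irf8* at 220 and 228 CPM. In T cells (41 and 159 cells) *Id2* was at 238 and 392 CPM, *Tcf4* at 19.3 and 48.9 CPM and *Batf3* at 19.3 and 8.96 CPM.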
